A study of Rattus norvegicus with 36 samples.

Results

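The genes described here were 10 genes of the Notch pathway: the receptors Notch1, Notch2 and Notch3, the ligands Jag1, Jag2 and Dll1, and the target genes Hes1, Hey1, Hey2 and Heyl. They were found by gene name, and all 10 were listed, each with 1 identifier, among 24275 genes. Notch1 and Jag1 lie on chromosome 3, Notch2 and Hey1 on 2, Dll1 and Hey2 on 1, and Notch3, Jag2, Hes1 and Heyl on 7, 6, 11 and 5 (the genome build is not given in the sources used here). RNA was sequenced from H9C2, a line of myoblasts from rat heart, after the cells had been transfected with 25 nmol/L of 1 of 6 mimics. These were a mimic control (MC), miR-125b, and 4 isomiRs of miR-125b that differ from it at the 3′ end (Trim AGU, Trim AG, Trim A and, with 1 base added, Plus A). After 24 h of transfection the cells were kept for 24 h either in hypoxia, at below 0.2% oxygen in a low-glucose medium without serum, or in normoxia in fresh medium, so oxygen and medium cannot be told apart. Each of the 12 groups of mimic and oxygen had 3 libraries, and counts per library were used for 33 libraries of 11 groups, all except Normoxia MC. All values come from 1 cell line, and nothing in the sources used here says whether the 3 libraries of a group came from separate cultures, so p-values measure only the spread between these libraries.

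Notch receptors are single-pass membrane proteins that are activated by ligands of the Jagged and Delta-like families on a neighbouring cell. Ligand binding lets ADAM proteases and then gamma-secretase cut the receptor, and the freed intracellular part enters the nucleus, binds the DNA-binding protein RBPJ and turns on genes of the Hes and Hey families, which encode basic helix-loop-helix repressors. In skeletal myoblasts Notch activity is known for restraining differentiation, and in the developing heart Notch takes part in valve and trabecula formation.

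The 5 miR-125b mimics are shown first because they share 1 seed and differ only at the 3′ end, so the comparisons between them rest on the last 1 to 3 bases. The seed, bases 2 to 8 counted from the 5′ end, is in capitals and is the same in all 5. The mature sequence is that of RefSeq's rno-miR-125b-5p (GRCr8, chr11:29732588-29732609, plus strand), and the isomiRs were written from it by adding or removing the bases that their names give.
Plus A: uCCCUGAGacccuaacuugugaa
miR-125b: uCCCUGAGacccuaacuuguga
Trim A: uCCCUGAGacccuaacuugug
Trim AG: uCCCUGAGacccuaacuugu
Trim AGU: uCCCUGAGacccuaacuug

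Libraries held 28361216 to 42672584 counts, with a median of 29923694. The 3 Hypoxia Trim AG libraries were the deepest, at 39940087 counts or more, against 34505938 or fewer in every other library. The listed hypoxia-induced genes (Vegfa, Slc2a1, Bnip3, Pdk1 and Adm) summed to 637 to 1203 CPM (counts scaled to the same total in every library) in hypoxia and to 219 to 386 CPM in normoxia. Of 7 muscle genes, 6 had a mean above 1 CPM, Myf5 was near 0, and their sum was 4419 to 4560 CPM in Hypoxia MC and 2753 to 4740 CPM in the other hypoxic libraries. Most of this sum was Vim, with a mean of 2988 CPM over the 33 libraries. The means were 82.0 CPM for Myod1, 72.3 for Myog, 53.9 for Tnnt2, 3.54 for Actc1 and 2.23 for Des, so the sum says little about these. Among cardiac regulators Gata4 and Mef2c were detected while Tbx5 was near 0. Bak1 and Bmf, known targets of miR-125b, summed to 97.9 to 99.5 CPM in Hypoxia MC and to 45.5 to 71.7 CPM in the hypoxic libraries of the other 5 mimics. The epithelial genes Epcam and Cdh1 summed to at most 0.261 CPM. The 3 leukocyte genes summed to 0.792 to 2.81 CPM, with means of 1.21 CPM for Cd68 and 0.406 CPM for Cd3e, while Ptprc was near 0. Of 4 endothelial genes only Tek was listed, at 0.690 to 4.46 CPM.

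Some libraries stood apart from their groups. Cav1 was at 102 CPM in replicate 1 of Normoxia miR-125b against 282 and 263 CPM in the other two, and at 269 CPM in replicate 1 of Normoxia Plus A against 98.0 and 98.3 CPM. For the 10 genes, called results of the comparisons that hold these 2 libraries are given with and without them. Those of the other pathway genes are given only with them. Long transcripts were low in some hypoxic libraries: the median deviation of 930 genes of at least 6000 bases, minus that of 3787 genes of 1000 to 2000 bases, was -1.0 on the log2 scale in replicate 2 of Hypoxia Trim AGU. It was between -0.43 and 0.10 in the other libraries of Hypoxia Trim A, Trim AG and Trim AGU, and between 0.12 and 0.24 in Hypoxia MC. Notch1, Notch2 and Notch3 are among the long genes, at 9526, 7941 and 7313 bases in the tables, and Hes1, at 1444 bases, is among the short ones. An added fit that removed a trend on gene length from each library is therefore quoted beside the calls that it changed.

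**Figure D1:**
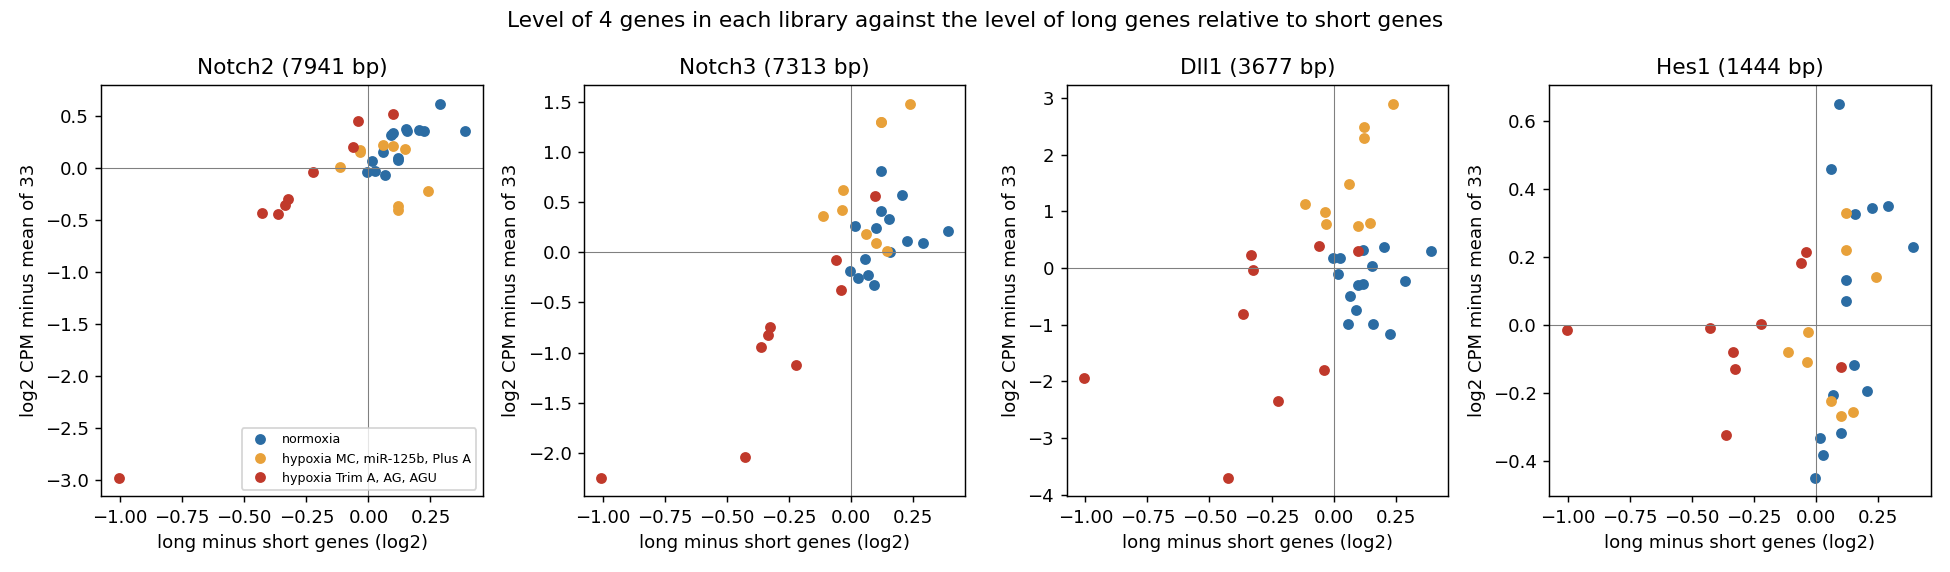
Level of Notch2, Notch3, Dll1 and Hes1 in each of 33 libraries (log2 CPM minus the mean over the libraries) against the level of genes of at least 6000 bases minus that of genes of 1000 to 2000 bases in the same library (log2). Each point is 1 library (blue normoxia, orange hypoxia with MC, miR-125b or Plus A, red hypoxia with a trimmed isomiR), and replicate 2 of Hypoxia Trim AGU, at -1.0 on the horizontal axis, has Notch2 2.98 below its mean while Hes1 is 0.02 below.

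Compared per length, as mean CPM per kilobase over the 33 libraries, Notch2 was the most abundant receptor at 21.3, ahead of Notch1 at 7.33 and Notch3 at 4.23. Jag1 was the leading ligand at 15.4, and Dll1 at 0.460 and Jag2 at 0.0861 were far lower. Hes1 was the leading target at 16.8, with Hey1 at 0.687, Hey2 at 0.517 and Heyl at 0.262. Within each library, Jag1 took 90.0% to 99.4% of the per-length sum of the 3 ligands, and Hes1 took 87.2% to 96.9% of that of the 4 targets. The depth behind these levels ran from a median of 5422 counts per library for Notch2 and 743 for Hes1 down to 18 for Hey1 and 10 for Jag2. In cell lysates of this kind, fewer cells that express a gene and less RNA per cell cannot be told apart. The libraries do not keep the strand, so reads of a gene and of an overlapping antisense gene cannot be told apart either.

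**Figure D2:**
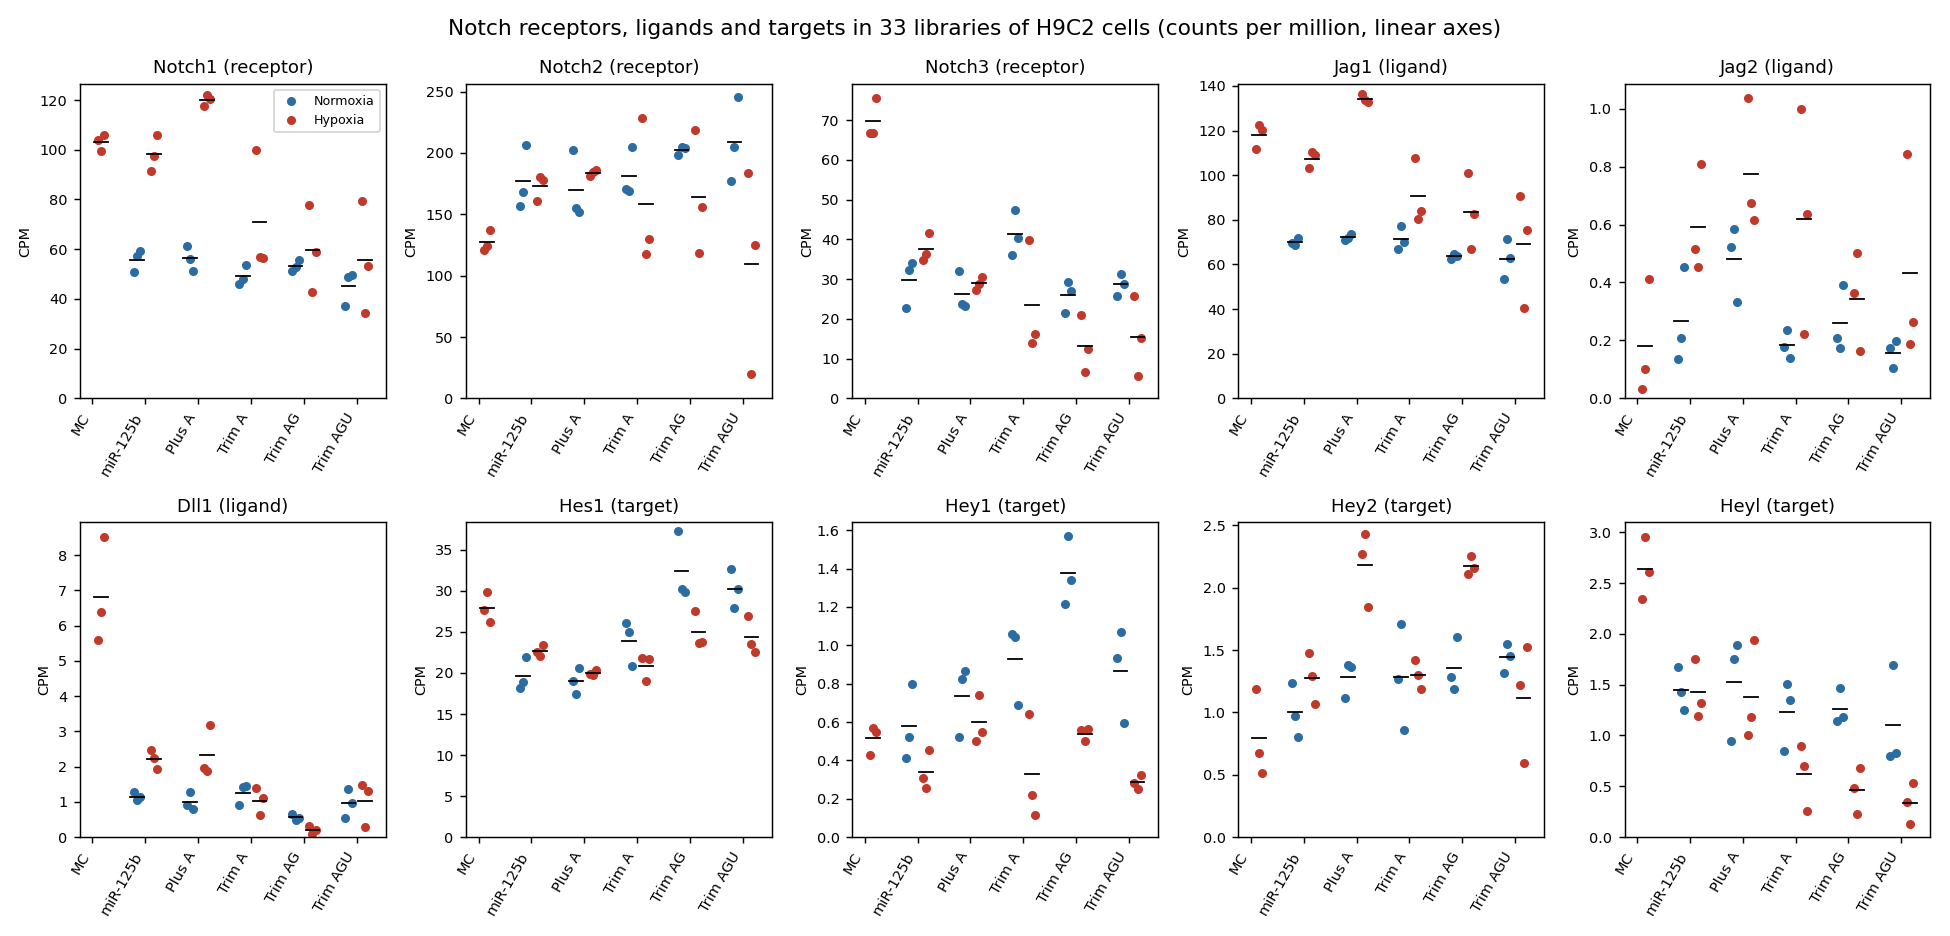
CPM of the 10 genes in each library, by mimic (horizontal axis) and oxygen (blue normoxia, red hypoxia), on linear axes that start at 0. Each point is 1 library and each bar the mean of 3, and Notch3, Dll1 and Heyl are highest in Hypoxia MC, at 69.8, 6.83 and 2.64 CPM.

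Among hypoxic cells, the comparison of each mimic with MC asks how the pathway's RNAs stand when miR-125b or an isomiR is added. By edgeR on each pair of groups, Notch3, Dll1 and Heyl were lower than in MC with all 5 mimics. Jag2, at 12 counts or fewer in each Hypoxia MC library, was higher with miR-125b and Plus A, and Hey2 was higher with Plus A and Trim AG. Some other fits also called Hey2 higher with miR-125b and Trim A, and Jag2 with Trim A. Hes1 and Jag1, the most abundant target and ligand, were not called with any mimic by edgeR on the pair of groups. Some other fits called Jag1 lower with Trim AGU. A test was called where its adjusted p was below 0.05 and the fold change reached 1.5. In total 20 of 49 tests of these genes were called, with 4 higher and 16 lower. Over all genes 27.2% of such tests were called, 12.1% higher and 15% lower. All 5 comparisons share the 3 MC libraries.

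Notch3, a receptor of smooth muscle and myogenic cells, stood at 66.9, 66.9 and 75.7 CPM in Hypoxia MC. It was at 34.8, 36.4 and 41.7 CPM with miR-125b and at 27.3, 28.9 and 30.7 CPM with Plus A. With Trim A it was at 39.9, 14.1 and 16.2 CPM, with Trim AG at 20.9, 6.56 and 12.4 CPM, and with Trim AGU at 25.6, 5.68 and 15.2 CPM. Every mimic library was below every MC library, and the spread was wide within the Trim groups, where replicate 1 was highest. The log2 fold changes against MC, with their SE, were -0.85 ± 0.07 for miR-125b and -1.25 ± 0.07 for Plus A, and among the trimmed isomiRs -1.54 ± 0.34 (Trim A), -2.33 ± 0.32 (Trim AG) and -2.06 ± 0.44 (Trim AGU). Adjusted p-values of edgeR's quasi-likelihood test were, in this order, 1.6e-06, 2.4e-07, 0.0056, 0.0003 and 0.015. The Trim AGU call was lost in 4 of 6 fits that left out 1 library (each MC library or replicate 3 of Trim AGU, adjusted p up to 0.063), and the miR-125b call was lost when all 33 libraries shared 1 fit, with an adjusted p of 0.054. After the length trend was removed the 5 values were -0.67, -1.18, -1.32, -2.06 and -1.63, and all 5 were still called.

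Notch2 and Notch1 moved less than Notch3. Notch2 was at 121, 124 and 137 CPM in Hypoxia MC, 161, 180 and 178 CPM with miR-125b, and 181, 184 and 186 CPM with Plus A. The 2 groups lay above MC without overlap, with log2 fold changes of 0.48 ± 0.05 and 0.55 ± 0.05 (adjusted p 1.4e-05 and 1.1e-05 by edgeR), both under the fold threshold of 1.5. With the length trend removed Notch2 was called higher against MC with miR-125b (0.67), Plus A (0.63), Trim A (0.61) and Trim AG (0.73). Its value in replicate 2 of Hypoxia Trim AGU was 20.2 CPM, against 183 and 125 CPM in the other two. Notch1, a receptor of wide tissue range, was at 104, 99.4 and 106 CPM in Hypoxia MC and at 77.6, 42.7 and 58.7 CPM with Trim AG, where it was called lower at -0.73 ± 0.17 (adjusted p 0.0062 by edgeR). With Trim AGU, Notch1 was at 79.6, 34.2 and 53.2 CPM, a difference from MC of -0.77 with an adjusted p of 0.052 by edgeR, and DESeq2, RLE scaling, the replicate block and the fit of all 33 libraries called it lower. Without replicate 1 of Hypoxia Trim A or of Hypoxia Trim AGU, Notch1 was called lower in that comparison with MC too, at -0.81 and -1.08. Long genes were low in the libraries left, at -0.36 and -0.33 relative to short genes (log2) for Trim A and -1.0 and -0.33 for Trim AGU. With the length trend removed and every library kept, Notch1 was called against MC with neither Trim A nor Trim AGU. The Trim AG call of Notch1 was lost without replicate 2 of Hypoxia Trim AG, at -0.55, and with the length trend removed, at -0.40.

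The makeup of the receptor RNA also differed between groups. In Hypoxia MC the per-length receptor total had medians of 44.3% Notch2, 29.7% Notch1 and 26.0% Notch3. In Hypoxia miR-125b the same medians were 58.5%, 27.7% and 13.8%, and in Hypoxia Trim AG 71.5%, 22.1% and 6.18%. Such shares compare long genes with each other inside 1 library. Replicate 2 of Hypoxia Trim AGU was the only library of 33 in which Notch2 was not the leading receptor, with 36.9% Notch2 and 51.9% Notch1.

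**Figure D3:**
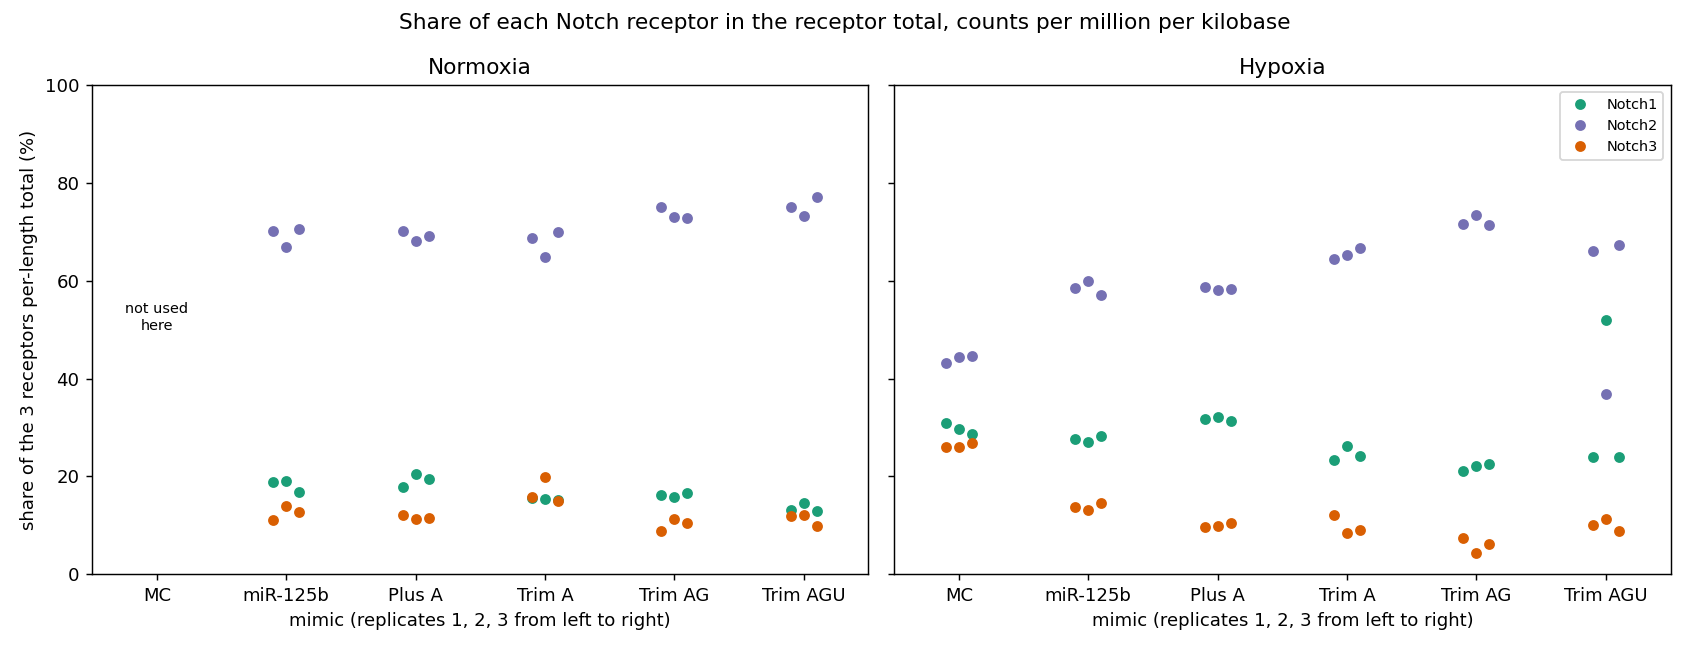
Share of Notch1, Notch2 and Notch3 in the per-length receptor total of each library (percent, vertical axis) by mimic, in normoxia (left) and hypoxia (right), with each point 1 library. Notch3 takes a median of 26.0% in Hypoxia MC and 6.18% in Hypoxia Trim AG.

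Of the ligands, Dll1 was called lower with all 5 mimics. This Delta-like ligand, which is expressed by myogenic cells, was at 5.59, 6.38 and 8.51 CPM in Hypoxia MC. It was at 2.47, 2.26 and 1.94 CPM with miR-125b, at 1.97, 1.89 and 3.17 CPM with Plus A, at 1.38, 0.633 and 1.10 CPM with Trim A, and at 1.47, 0.282 and 1.32 CPM with Trim AGU. With Trim AG it was at 0.315, 0.0751 and 0.211 CPM, the lowest of the 11 groups, where the lowest library had 3 counts. Again no mimic library reached the MC libraries. Against MC, Dll1 had log2 fold changes of -1.58 ± 0.19 with miR-125b and -1.52 ± 0.24 with Plus A. With the trimmed isomiRs they were -2.67 ± 0.29 (Trim A), -5.0 ± 0.37 (Trim AG) and -2.62 ± 0.51 (Trim AGU). The edgeR adjusted p-values were, in this order, 2.5e-05, 0.00035, 0.00016, 1e-05 and 0.011. Without replicate 3 of Hypoxia MC the Trim AGU call was lost at an adjusted p of 0.053.

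Jag2 was near the limit of these libraries. It passed the filter on low counts largely through the mimic libraries, where it was higher, so a lower call was hardly possible. With Trim AGU it was not tested against MC. It was at 0.0331, 0.101 and 0.412 CPM in Hypoxia MC, 1 count in the lowest library, against 0.516, 0.452 and 0.807 CPM with miR-125b and 1.04, 0.674 and 0.615 CPM with Plus A. Its log2 fold changes of 1.73 ± 0.64 and 2.10 ± 0.62 passed the test at adjusted p-values of 0.037 and 0.015 by edgeR. Leaving out 1 library removed the miR-125b call in 4 of 6 fits (replicate 1 or 2 of Hypoxia MC, replicate 1 or 3 of Hypoxia miR-125b) and the Plus A call in 1 of 6 (replicate 2 of Hypoxia MC). Jag1, the main ligand, lay at 112, 122 and 120 CPM in Hypoxia MC, 103, 110 and 109 CPM with miR-125b and 136, 134 and 133 CPM with Plus A. Its log2 fold changes against MC ran from -0.66 ± 0.23 with Trim AGU to 0.21 ± 0.05 with Plus A, and none was called by edgeR on the pair of groups. The Trim AGU value of Jag1 exceeded 1.5-fold with an adjusted p of 0.073, and it was called lower by DESeq2 (adjusted p 0.035), with all 33 libraries in 1 fit, and by edgeR without replicate 1 of Hypoxia Trim AGU, at -0.87. It was not called with the length trend removed or with the replicate block. With Trim A, Jag2 differed from MC by 1.80 with an adjusted p of 0.085 by edgeR, and it was called higher with all 33 libraries in 1 fit, with the length trend removed (1.97), and without replicate 3 of Hypoxia MC or replicate 2 of Hypoxia Trim A.

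The targets did not move together. Heyl was at 2.35, 2.96 and 2.61 CPM in Hypoxia MC and below that in every mimic library, from 0.126 CPM with Trim AGU to 1.94 CPM with Plus A. The log2 fold changes of Heyl were -0.85 ± 0.21 with miR-125b and -0.91 ± 0.26 with Plus A, and with the trimmed isomiRs -2.05 ± 0.37 (Trim A), -2.43 ± 0.34 (Trim AG) and -2.84 ± 0.44 (Trim AGU). All 5 passed edgeR's test, at adjusted p-values of 0.0042, 0.013, 0.0022, 0.00034 and 0.0053, and every fit without 1 library kept them. With all 33 libraries in 1 fit the miR-125b and Plus A values of Heyl had adjusted p-values of 0.086 and 0.058. Hey2 went the other way: it was at 1.19, 0.672 and 0.515 CPM in Hypoxia MC, 2.27, 2.43 and 1.84 CPM with Plus A and 2.11, 2.25 and 2.16 CPM with Trim AG. The increases of 1.48 ± 0.31 and 1.51 ± 0.30 had adjusted p-values of 0.0023 and 0.0024 by edgeR, and no library of Plus A or Trim AG overlapped MC. Without replicate 1 of Hypoxia MC, edgeR also called Hey2 higher with miR-125b (1.13, adjusted p 0.012) and Trim A (1.17, 0.021). The replicate block called it with miR-125b, and the fit of all 33 libraries called it with Trim A.

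Hes1, the target most used as a readout of Notch activity, was at 27.7, 29.9 and 26.2 CPM in Hypoxia MC. It was at 22.5, 22.1 and 23.4 CPM with miR-125b and at 19.9, 19.8 and 20.4 CPM with Plus A. The differences of -0.27 ± 0.06 and -0.46 ± 0.07 had adjusted p-values of 0.0040 and 0.00027 by edgeR but were under 1.5-fold. With Trim A, Hes1 was at 21.8, 19.0 and 21.7 CPM, below every MC library. Its adjusted p there was also below 0.05 by edgeR, at under 1.5-fold. With Trim AG the difference in Hes1 was -0.10 ± 0.09 and with Trim AGU -0.06 ± 0.13. Hey1 was not called by edgeR with any mimic (with Trim A it was called lower without replicate 1 of Hypoxia Trim A, at -1.55), at 0.430, 0.571 and 0.549 CPM in Hypoxia MC and 0.116 to 0.742 CPM in the mimic libraries.

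By comparison, 4 of 10 genes were called with miR-125b where 21.9% of all genes were, and 5 of 10 with Plus A (24.8%). The trimmed isomiRs had 3 of 10 (Trim A, 28.1%), 5 of 10 (Trim AG, 37.2%) and 3 of 9 (Trim AGU, 23.8%). The myogenic gene Myog moved with the MC comparisons: it was at 342 to 359 CPM in Hypoxia MC and at 10.4 to 64.7 CPM in the hypoxic mimic libraries. Tek, the endothelial gene that was listed, was at 4.26 to 4.46 CPM in Hypoxia MC and at 0.690 to 2.58 CPM in the hypoxic mimic libraries, and the 4 cardiac regulators summed to 56.9 to 60.2 CPM and 25.9 to 45.1 CPM. The part of these differences in the values of the Notch genes was not tested.

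**Figure D4:**
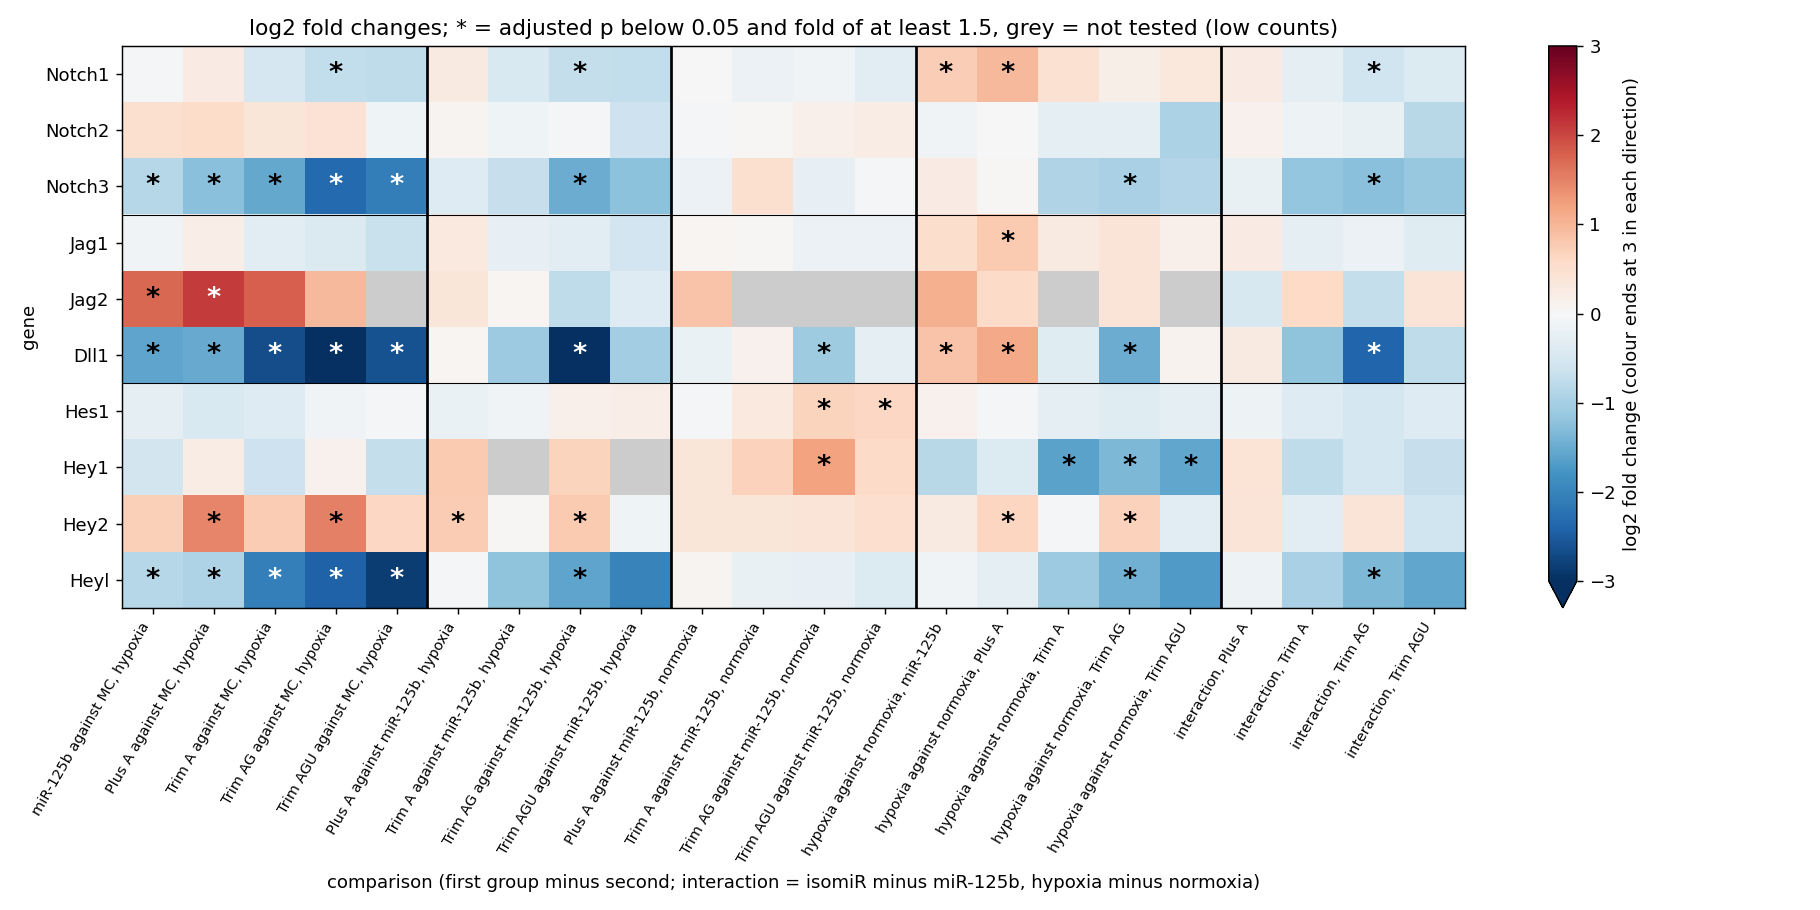
log2 fold change of each gene (rows) in each of 18 comparisons and 4 interactions (columns), red higher and blue lower in the first group, with * for an adjusted p below 0.05 and a fold of at least 1.5 and grey where counts were too low to test. Notch3, Dll1 and Heyl carry a mark in all 5 comparisons with MC, and Trim AG is the isomiR with the most marks against miR-125b.

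For Normoxia MC only the authors' group mean of normalized counts was used, beside that of Normoxia Plus A, with no error and no test. In the authors' means Dll1 was 68.0 in Normoxia MC and 29.5 in Normoxia Plus A, Notch3 952 and 780, and Hes1 789 and 566. Notch2 was 4257 and 5032, Jag1 1945 and 2145, and Notch1 1643 and 1672. Jag2 was 1.31 and 14.2, Hey2 23.9 and 38.2, Hey1 21.1 and 22.0, and Heyl 33.9 and 45.6.

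Next, each isomiR was compared with miR-125b in hypoxia, the comparison in which only the 3′ end of the mimic differs. Under Trim AG, which lacks the last 2 bases, edgeR called Notch1, Notch3, Dll1 and Heyl lower and Hey2 higher than under miR-125b. For Plus A only Hey2 was called, and for Trim A and Trim AGU no gene was, although other fits called up to 4 genes for Trim AGU. The fit with the length trend removed called 0 genes for Trim A and for Trim AGU. The trimmed isomiRs were not tested against each other. In all, 6 of 38 tests were called, with 2 higher and 4 lower, where 6.54% of all tests were (2.73% higher and 3.81% lower). The 4 comparisons share the 3 Hypoxia miR-125b libraries.

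With Trim AG, Dll1 differed from its level under miR-125b by -3.43 ± 0.39 (adjusted p 0.00033 by edgeR), Heyl by -1.59 ± 0.38 (0.011) and Notch3 by -1.49 ± 0.32 (0.0074), and their libraries did not overlap. Heyl was at 0.484, 0.225 and 0.680 CPM with Trim AG and at 1.75, 1.19 and 1.32 CPM with miR-125b. These 3 calls were kept in each fit without 1 library and with the length trend removed. Hey2 was higher by 0.78 ± 0.20 with an edgeR adjusted p of 0.014, but not without replicate 3 of Hypoxia miR-125b, at 0.67 and an adjusted p of 0.058. Notch1 was lower by -0.70 ± 0.18 with an edgeR adjusted p of 0.014, and this call was lost without replicate 2 or 3 of Hypoxia Trim AG, without replicate 3 of Hypoxia miR-125b, and with the length trend removed, at -0.57. The 5 of 10 genes called compare with 19.3% of all genes in the same comparison.

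With Plus A, which has 1 more A, Hey2 was at 2.27, 2.43 and 1.84 CPM against 1.48, 1.29 and 1.07 CPM with miR-125b. The difference of 0.75 ± 0.21 had an adjusted p of 0.041 by edgeR, 1 of 10 genes where 2.03% of all genes were called. It was lost in 5 of 6 fits without 1 library (every one except replicate 3 of Hypoxia Plus A), by DESeq2, without the filter on low counts, and with all 33 libraries in 1 fit. Notch1 (0.27 ± 0.06), Jag1 (0.30 ± 0.04) and Notch3 (-0.39 ± 0.08) had adjusted p-values of 0.012, 0.0022 and 0.011 with edgeR at less than 1.5-fold. Dll1 differed from miR-125b by 0.06 with a 95% interval of -0.40 to 0.52, and Heyl by -0.06 with an interval of -0.64 to 0.51.

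With Trim A, 0 of 9 genes were called by edgeR where 0.873% of all genes were. At an unadjusted p below 0.05 there were 2 (Dll1 and Heyl), and DESeq2 called 1 (Dll1). Dll1 was at 1.38, 0.633 and 1.10 CPM, below all miR-125b libraries, with a difference of -1.09 ± 0.28 and an edgeR adjusted p of 0.086. The edgeR calls depended on replicate 1 of Hypoxia Trim A: without it Dll1 (-1.33), Heyl (-1.56), Notch3 (-1.30) and Notch1 (-0.78) were all called lower, at adjusted p-values of 0.0041, 0.014, 7.4e-06 and 1.2e-05. Long genes were low in the libraries left, replicates 2 and 3, at -0.36 and -0.33 relative to short genes (log2), against 0.10 in replicate 1. With the length trend removed and every library kept, 0 genes were called. With Trim AGU, edgeR called 0 of 9 genes where 3.75% of all genes were, 4 had an unadjusted p below 0.05 (Notch1, Notch3, Jag1 and Heyl) and DESeq2 called 2 (Notch3 and Heyl). With all 33 libraries in 1 fit Notch1 (-0.74), Notch3 (-1.22), Dll1 (-1.05) and Heyl (-2.0) were called lower. With the length trend removed, and with the replicate block, 0 genes were called. By edgeR on the pair of groups, Heyl differed by -2.0 ± 0.47 with an adjusted p of 0.067, and Notch3 by -1.22 ± 0.44 with 0.16. Without replicate 2 of Hypoxia Trim AGU, the library low in long genes, both were called, Heyl at -1.66 and Notch3 at -0.85. Without replicate 1 of Hypoxia Trim AGU, Notch3 (-1.75) and Notch1 (-1.05) were called lower. That leaves replicates 2 and 3, where long genes stood at -1.0 and -0.33 relative to short genes (log2).

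In normoxia the same isomiRs were compared with miR-125b. Hes1 was higher with Trim AG and Trim AGU, and with Trim AG Hey1 was also higher and Dll1 lower. The total was 4 of 37 tests, with 3 higher and 1 lower, where 6.44% of all tests were called (3.55% higher and 2.9% lower). Hes1 stood at 18.2, 18.9 and 21.9 CPM in Normoxia miR-125b, at 37.4, 30.2 and 29.8 CPM with Trim AG and at 32.7, 27.9 and 30.3 CPM with Trim AGU. The increases of 0.68 ± 0.11 and 0.62 ± 0.11 had adjusted p-values of 0.0010 and 0.0033 by edgeR. They sat near the fold threshold: the Trim AG call was lost without replicate 1 of Normoxia Trim AG, at 0.57, and the Trim AGU call without replicate 1 of Normoxia Trim AGU, at 0.56, or of Normoxia miR-125b, at 0.56. The last of these is 1 of the 2 libraries that stood apart in Cav1. With both left out, Hes1 was 0.63 higher with Trim AG and called, and 0.56 higher with Trim AGU and not called.

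Hey1 was at 0.411, 0.522 and 0.799 CPM in Normoxia miR-125b and at 1.22, 1.57 and 1.34 CPM with Trim AG, a rise of 1.2 ± 0.29 (adjusted p 0.010 by edgeR). Dll1 was at 1.27, 1.04 and 1.15 CPM and at 0.660, 0.488 and 0.557 CPM, a fall of -1.06 ± 0.26 (0.0096). Neither pair of groups overlapped, and without the 2 libraries in doubt the values were 1.01 and -0.98 and both were called. With all 33 libraries in 1 fit the Dll1 value had an adjusted p of 0.066. The share called was 3 of 9 with Trim AG, where 13.9% of all genes were called, and 1 of 9 with Trim AGU, where 11.4% were. With Plus A edgeR called 0 of 10, with 0 at an unadjusted p below 0.05 and 0 by DESeq2, where 0.0% of all genes were called. This comparison holds both libraries in doubt, 1 in each group, each with Cav1 near the level of the other group. Whether they were exchanged was not tested, and an exchange would shrink differences between these groups. Without the 2 libraries 0 of 10 were called. With Trim A edgeR called 0 of 9 where 0.414% of all genes were, with 3 at an unadjusted p below 0.05 (Notch1, Notch3 and Hes1) and 0 by DESeq2. The intervals were narrow for the abundant genes: Hes1 with Plus A differed from miR-125b by -0.04 with a 95% interval of -0.24 to 0.16, and Jag1 by 0.05 with an interval of -0.05 to 0.15. Both intervals include the 2 libraries in doubt.

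Hypoxia was then compared with normoxia under each mimic. Notch1 rose with miR-125b and Plus A, Jag1 rose with Plus A, and Hey1 fell with the 3 trimmed isomiRs. Dll1 rose with miR-125b and Plus A and fell with Trim AG. Of 48 tests 13 were called, 7 higher and 6 lower in hypoxia, where 26.0% of all tests were called, 12% higher and 14% lower. By mimic these were 2 of 10 genes with miR-125b (20.9% of all genes) and 4 of 10 with Plus A (22.8%). Under trimmed isomiRs they were 1 of 9 (Trim A, 26.5%), 5 of 10 (Trim AG, 32.8%) and 1 of 9 (Trim AGU, 27.0%).

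Notch1 was at 50.9, 57.3 and 59.1 CPM in Normoxia miR-125b and at 91.3, 97.6 and 106 CPM in Hypoxia miR-125b. With Plus A it was at 61.5, 56.1 and 51.4 CPM and at 118, 122 and 120 CPM. The rises of 0.73 ± 0.07 and 0.98 ± 0.07 had adjusted p-values of 3.2e-05 and 2.9e-06 by edgeR, and were 0.67 and 1.03 without the 2 libraries in doubt. With the trimmed isomiRs Notch1 differed by 0.17 to 0.45 and was not called. After the length trend was removed it was called with Trim A as well, at 0.59, and with Trim AGU, at 0.85. Jag1 was at 71.1, 71.8 and 73.7 CPM in Normoxia Plus A and at 136, 134 and 133 CPM in Hypoxia Plus A, a rise of 0.79 ± 0.05 (adjusted p 3e-06 by edgeR; 0.75 without the 2 libraries in doubt, still called), and with miR-125b it was higher by 0.54 ± 0.05, under 1.5-fold. With Trim AG the difference in Jag1 was 0.40 and was called only after the length trend was removed, at 0.60. Notch2 was not called by edgeR under any mimic, but it was called lower with Trim AGU when all 33 libraries shared 1 fit (-0.95) and with Trim A without replicate 1 of Hypoxia Trim A (-0.62). With the length trend removed Notch2 was called under neither of them.

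Dll1 rose by 0.86 ± 0.20 with miR-125b and by 1.13 ± 0.29 with Plus A, at adjusted p-values of 0.0058 and 0.0098 by edgeR, and with all 33 libraries in 1 fit the miR-125b value had 0.076. Without the libraries in doubt they were 0.94 and 1.05, and both were called. With Trim AG it fell by -1.48 ± 0.48 at an adjusted p of 0.027, from 0.488 to 0.660 CPM in normoxia to 0.0751 to 0.315 CPM in hypoxia. The Trim AG call was lost in 5 of 6 fits without 1 library (every one except replicate 1 of Hypoxia Trim AG, adjusted p up to 0.093) and by DESeq2. Also with Trim AG, Notch3 fell by -0.96 ± 0.33 (adjusted p 0.031 by edgeR) and Heyl by -1.43 ± 0.37 (0.0096). The Heyl call was kept without any 1 library, and the Notch3 call was lost without replicate 3 of Hypoxia Trim AG or replicate 2 or 3 of Normoxia Trim AG, and by DESeq2, at an adjusted p of 0.074. With Trim A, Notch3 differed by -0.91 with an adjusted p of 0.053 by edgeR, and it was called lower with the length trend removed (-0.81), without the filter on low counts, with the replicate block, with all 33 libraries in 1 fit and without replicate 1 of Hypoxia Trim A (-1.52). Heyl with Trim A was called lower with all 33 libraries in 1 fit and without replicate 1 of Hypoxia Trim A (-1.44). It was not called there by edgeR on the pair of groups. With Trim AGU, Notch3 (-0.88) and Heyl (-1.69) were called lower with all 33 libraries in 1 fit but not by edgeR on the pair of groups, and DESeq2 called Heyl. With the length trend removed Heyl was called under neither Trim A nor Trim AGU, and Notch3 was not called under Trim AGU.

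Hey1 was at 1.06, 1.04 and 0.690 CPM in Normoxia Trim A and 0.644, 0.222 and 0.116 CPM in Hypoxia Trim A. It was at 1.22, 1.57 and 1.34 CPM and 0.557, 0.501 and 0.562 CPM with Trim AG, and at 0.935, 1.07 and 0.595 CPM and 0.281, 0.251 and 0.323 CPM with Trim AGU. All hypoxic values were below all normoxic ones of the same mimic. The falls of -1.59 ± 0.53, -1.34 ± 0.25 and -1.55 ± 0.41 had adjusted p-values of 0.036, 0.0016 and 0.026 by edgeR. Only the Trim AG call was kept in every fit without 1 library, and the other two were each lost in 5 of 6 (every one except replicate 1 of Hypoxia Trim A, and replicate 2 of Hypoxia Trim AGU). The Trim AGU call was also lost with the replicate block, at an adjusted p of 0.085. With miR-125b and Plus A Hey1 differed by -0.84 ± 0.41 and -0.42 ± 0.34 and was not called. Hey2 rose with Plus A (0.65 ± 0.22, adjusted p 0.035 by edgeR) and Trim AG (0.68 ± 0.20, 0.018). The Plus A call was lost in every fit that left out 1 library except replicate 3 of Hypoxia Plus A, and without the libraries in doubt (0.54). It was also lost by DESeq2, without the filter on low counts, with all 33 libraries in 1 fit, with the replicate block, and with the length trend removed (0.53), at adjusted p-values of 0.059 to 0.10. The Trim AG call was lost without replicate 1 or 2 of Normoxia Trim AG.

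**Figure D5:**
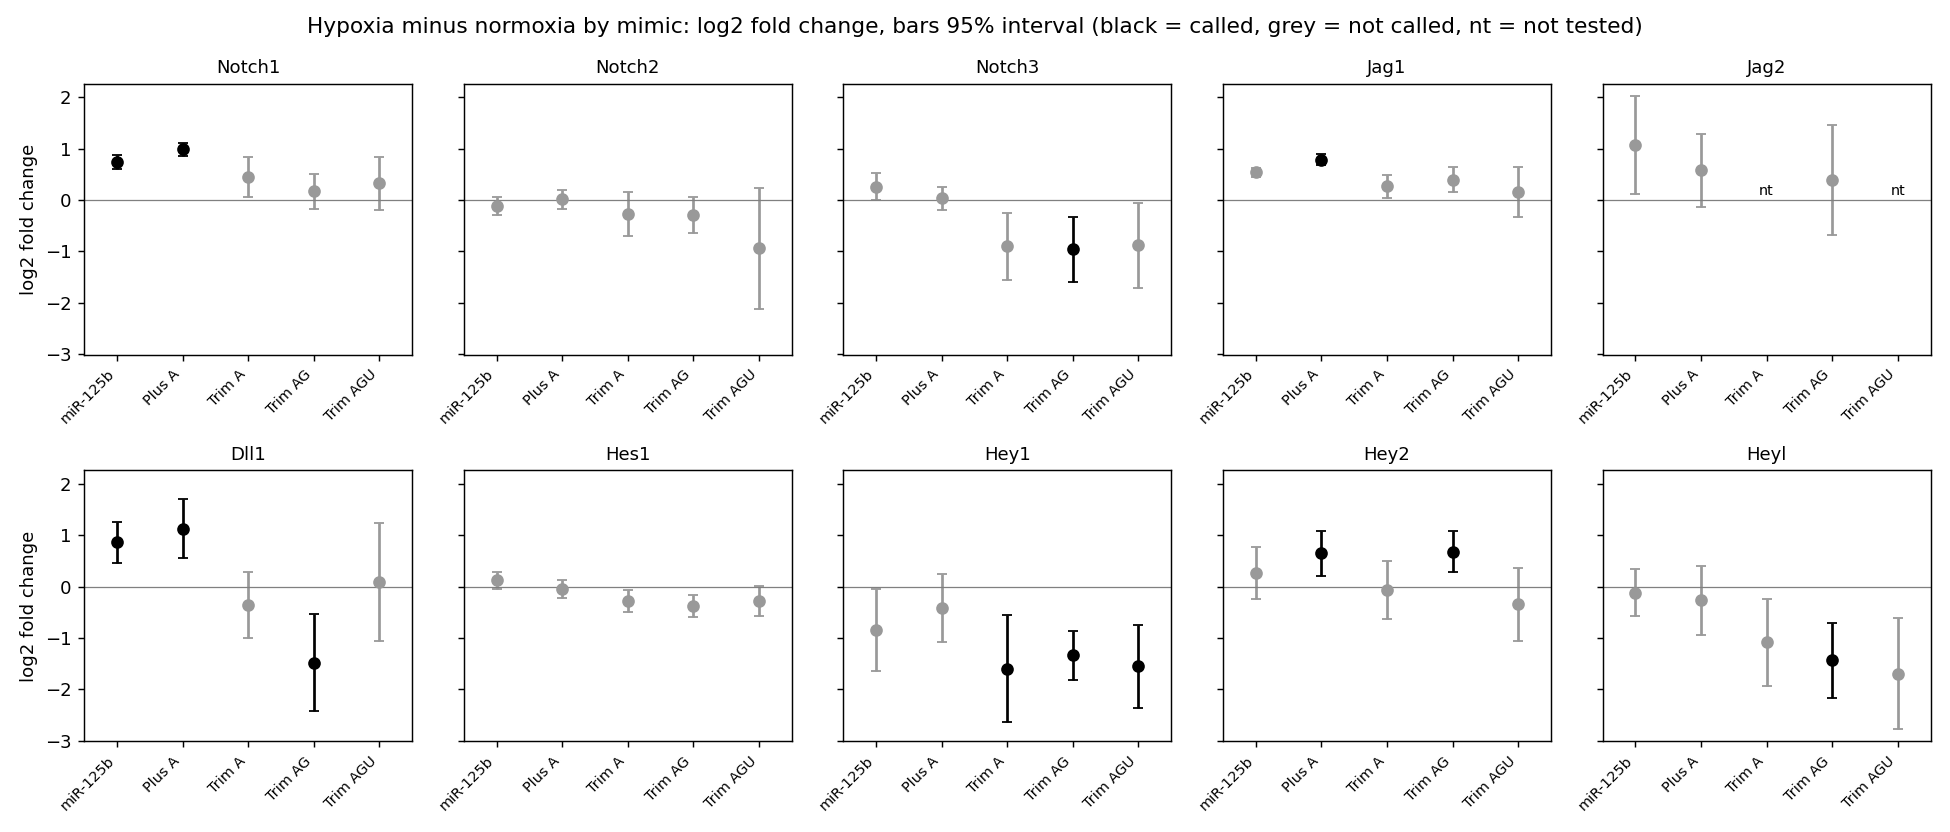
log2 fold change of hypoxia minus normoxia (vertical axis, 0 = no difference) for each gene under miR-125b and each isomiR, with bars for the 95% interval, black where called and grey where not. Dll1 is above 0 with miR-125b (0.86) and Plus A (1.13) and below 0 with Trim AG (-1.48).

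Whether an isomiR's difference from miR-125b itself differed between hypoxia and normoxia was tested by the interaction. For Trim AG it was negative and called for Dll1 (-2.38 ± 0.46, adjusted p 0.0036 by edgeR), Heyl (-1.35 ± 0.44, 0.041), Notch3 (-1.26 ± 0.39, 0.035) and Notch1 (-0.61 ± 0.21, 0.048), 4 of 10 genes where 11.3% of all genes were called. Over the 4 isomiRs this was 4 of 40 tests, all negative, where 3.22% of all tests were called (1.26% higher and 1.96% lower). Hes1 had -0.53 ± 0.14 with an adjusted p of 0.016 and was under 1.5-fold, though it was called in 3 of 12 fits without 1 library. Of these, Dll1 was called in every fit without 1 library and under every alternative, while Notch1 lost its call in 11 of 12 such fits, Heyl in 9 of 12 and Notch3 in 8 of 12. Without the 2 libraries in doubt Dll1 (-2.45) and Heyl (-1.47) were called, and Notch3 (-1.10) and Notch1 (-0.55) were not. With the length trend removed Dll1 (-2.24) and Notch3 (-1.06) were called, and Heyl (-1.19) and Notch1 (-0.39) were not. With all 33 libraries in 1 fit, and with the replicate block, Dll1 alone was called. For Plus A, Trim A and Trim AGU edgeR called 0 of 10 genes each, where 0.0193%, 0.605% and 0.966% of all genes were called. At an unadjusted p below 0.05 there were 2, 3 and 3 genes, and DESeq2 called 0 in each, as did the fits without the 2 libraries in doubt. Without replicate 1 of Hypoxia Trim A the interactions of Notch1 (-0.60), Notch3 (-1.77) and Dll1 (-1.46) with Trim A were called, and without replicate 1 of Hypoxia Trim AGU those of Notch1 (-0.70) and Notch3 (-1.65) with Trim AGU were. Removing the length trend, with every library kept, left 0 genes called for Trim A and for Trim AGU.

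For each gene the 11 groups were sorted by mean CPM. Between neighbours in that order the libraries overlapped in 7 of 10 steps for Dll1, 8 of 10 for Notch3 and Jag1, 10 of 10 for Jag2 and 9 of 10 for the other genes. Sorting puts groups with similar means side by side, which favours such overlap in advance. The share over all genes was not computed, so these counts describe no trait of the 10 genes. Dll1 ran from 6.83 ± 1.51 CPM (SD, n = 3) in Hypoxia MC to 0.20 ± 0.12 CPM in Hypoxia Trim AG. Notch3 ran from 69.8 ± 5.09 CPM in Hypoxia MC to 13.3 ± 7.22 CPM in Hypoxia Trim AG. Notch1 was highest in Hypoxia Plus A at 120 ± 2.29 CPM and lowest in Normoxia Trim AGU at 45.2 ± 7.02 CPM, and Jag1 had the same highest group at 134 ± 1.77 CPM and the same lowest at 62.5 ± 9.08 CPM. Hes1 was highest in Normoxia Trim AG at 32.5 ± 4.25 CPM and lowest in Normoxia Plus A at 19.0 ± 1.61 CPM.

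By group means over the 11 groups, the named genes whose pattern was most like that of Notch2 were SNORA4 (Pearson r = 0.974), Phactr4 (0.949) and Rapgef2 (0.947). For Jag1 they were Synrg (0.984), Setdb1 (0.981) and Notch1 (0.974), and for Hes1 they were Kdm1a (0.970), Odf2 (0.953) and Nfkbiz (0.949). These were the highest of 11277 genes whose mean reached 1 CPM, they are a description over 11 points that share libraries and depth, and SNORA4 averaged 1.09 CPM.

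Beyond these 10 genes, 52 other pathway genes in 8 lists were found in the tables, and over the 5 comparisons with MC in hypoxia 52 of 240 tests were called, 6 higher and 46 lower (21.7% against 27.2% for all genes). Tle2, a Groucho co-repressor that works with Hes proteins, was lower with all 5 mimics by log2 fold changes of -2.43 to -1.13, from 24.1 ± 1.94 CPM in Hypoxia MC to 4.28 ± 1.32 CPM with Trim AG. Dtx3l, a Deltex-family ubiquitin ligase, was lower with all 5 by -2.18 to -0.95, from 16.5 ± 0.711 CPM to 3.49 ± 0.0662 CPM in the same groups. Neurl1, a ubiquitin ligase for Notch ligands, was lower with all 5 by -1.96 to -1.01, from 87.6 ± 0.929 CPM to 21.5 ± 5.56 CPM. By list, 8 of 20 tests of ligand endocytosis genes were lower, as were 10 of 45 of negative regulators, 8 of 45 of co-repressors, 8 of 40 of receptor maturation and cleavage, 5 of 20 of receptor glycosylation, 4 of 10 of other Hes genes and 3 of 45 of the nuclear complex. Receptors and ligands outside the 10 had 6 of 15 tests higher. Over all genes 15% of such tests were called lower and 12.1% higher. Several of these counts rest on 1 or 2 genes. Neurl1 gave 5 and Neurl1b 3 of the lower calls in ligand endocytosis. Lfng gave all 5 in receptor glycosylation, and Hes6 all 4 in other Hes genes. Of the 6 higher calls, Dll3 gave 5 and Notch4 gave 1. The 5 comparisons share the MC libraries, so repeated calls of 1 gene are not independent.

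Against miR-125b, 16 of 192 tests of these pathway genes were called in hypoxia, 1 higher and 15 lower (8.33% against 6.54% of all tests), and 8 of 188 in normoxia, 3 higher and 5 lower (4.25% against 6.44%). Tle2 was lower in hypoxia with 3 of 4 isomiRs (-1.31 at the lowest), Dtx3l with 1 (-1.24 at the lowest) and Dlk2, a Delta-like homologue, with 1 (-1.22). In normoxia Neurl1b, a relative of Neurl1, was higher with 2 isomiRs, at 11.4 ± 0.706 CPM with Trim AG and 13 ± 3.29 CPM with Trim AGU against 4.74 ± 0.228 CPM with miR-125b. Psenen, a gamma-secretase subunit, was lower with 2 (-0.77 at the lowest), and Furin, which cuts the receptor on its way to the surface, was higher with 1 (0.71).

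Between hypoxia and normoxia 60 of 239 pathway tests were called, 33 higher and 27 lower (25.1% against 26.0% of all tests). Dll3, a Delta-like protein that acts inside the cell, rose in hypoxia under all 5 mimics by 1.43 to 2.29, for instance from 1.04 ± 0.20 to 3.94 ± 0.335 CPM with miR-125b. Psen2, a catalytic subunit of gamma-secretase, rose under all 5 by 0.60 to 1.42, and Neurl1b fell under all 5 by between -2.52 and -1.86. In the interaction tests 5 of 192 were called, all lower (2.60% against 3.22% of all tests), and these included Tle2 (2 of 4 isomiRs, -1.21 at the lowest), Hes6 (1 of 4, -1.08) and Notch4 (1 of 4, -0.91).

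Promoters of the members were searched for the core RBPJ motif TGGGAA on both strands, in windows from 250 bases before to 50 bases after the gene's start (RefSeq, GRCr8). Of the 33469 promoters listed, 25.68% held it at least once and 3.85% at least 2 times. A promoter was given for 9 of the 10 genes, and 4 of these held the motif: Dll1, Hes1 and Hey2 had 2 matches each and Notch3 had 1. The matches of Hes1 and Dll1 are shown because in normoxia Hes1 was called higher and Dll1 lower under Trim AG, both against miR-125b, with the motif in capitals on the gene's strand (TTCCCA where it lies on the other strand) and 9 bases on each side.
Hes1 (chr11:84213154-84213177, minus strand): aagttactgTGGGAAagaaagttt
Hes1 (chr11:84213140-84213163, minus strand): aagaaagttTGGGAAgtttcacac
Dll1 (chr1:64993342-64993365, minus strand): aagctctctTGGGAAttaagctga
Dll1 (chr1:64993445-64993468, minus strand): tccagcccgTTCCCAccgtgcccc
A match describes these letters only, and a promoter without one says nothing about the factor.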

How the data were processed

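Poly-A RNA of H9C2 cells was sequenced without strand information. The submitters' processing notes name HISAT2 and StringTie, with no version, and the genome build is not given in the sources used here. The authors deposited 12 tables, each of 1 comparison of groups. Of these, 11 hold raw counts per gene and library, as deposited, with gene lengths in bases. The other holds the authors' group means of size-factor normalized counts (a normalized signal) and was the only source used for Normoxia MC. Columns of the authors' own fold changes and p-values were not used. Tables were joined by gene identifier into 24275 genes and 33 libraries, and shared libraries had 0 conflicting counts. The 1439 genes without a name held at most 1.34% of a library's counts. The labels Trim 1, 2 and 3 were taken as Trim A, Trim AG and Trim AGU by the number of bases removed. Replicates differed beyond sampling noise (chi-square per gene of 4.75 or more).

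Each pair of groups was tested on its own 6 libraries with edgeR 4.0.16 in R 4.3.3 (TMM normalization, filterByExpr, quasi-likelihood F-test, two-sided), and interactions on 12. P-values were adjusted by Benjamini-Hochberg over all genes tested. A gene was called at an adjusted p below 0.05 and a fold of at least 1.5. There were 18 comparisons of pairs and 4 interactions. CPM used library totals, and per-length levels are CPM per kilobase. Intervals are normal 95% intervals from the SE. Alternatives were RLE scaling, DESeq2 1.42.0, no filter, all 33 libraries in 1 fit, a fold of 2, a replicate block, leaving out each library, and leaving out the 2 doubtful libraries. A fit with offsets from a lowess trend on gene length (span 0.3) was added after the data were seen. The tests were tried on simulated data. Likeness is Pearson's r of log2 CPM over 11 group means. All 10 genes are named, and other pathway genes by a rule: from 8 lists (58 genes, 52 found), the 3 per family of comparisons with the most calls and then the largest change. The genes and lists were chosen with earlier results of these data known. Sequences are from RefSeq (GRCr8). Python 3.11.15, pandas 2.3.3, numpy 2.4.6 and matplotlib 3.10.9 were used.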

Additional observations from a re-analysis of the deposited data

Results flagged for a closer look

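For 5 genes the difference between Trim AG and miR-125b in hypoxia differed from that in normoxia, by edgeR's test of the interaction at an adjusted p below 0.05. The interaction was -2.376 on the log2 scale for Dll1, -1.354 for Heyl, -1.258 for Notch3, -0.6078 for Notch1 and -0.5306 for Hes1. The Hes1 value was under 1.5-fold, and Notch1, Heyl and Notch3 lost their calls in most fits without 1 library. Only Dll1 kept its call in each of those fits, and it alone was called with all 33 libraries in 1 fit or with the replicate block. For Dll1 the difference was -3.43 in hypoxia and -1.06 in normoxia, so it pointed the same way in both and was larger in hypoxia. For Heyl it was -1.59 and -0.25, for Notch3 -1.49 and -0.24, and for Notch1 -0.70 and -0.11. Hes1 was 0.16 higher in hypoxia and 0.68 higher in normoxia.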

How the results depend on the processing

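Of 212 tests of the 10 genes, 47 were called. Of these, 28 were called in every fit without 1 library, 31 under every other alternative fit and 23 under both. In 0 of the 212 did the sign reverse where the main or the alternative fit was called. Changes of sign between uncalled fits were not counted. Of 165 uncalled tests, 35 were called under some alternative. Against MC in hypoxia 20 calls became 17 to 22 without 1 library. Against miR-125b in hypoxia 6 calls became 3 at a fold of 2 and 3 to 10 without 1 library (3 without Hypoxia miR-125b replicate 3, 10 without Hypoxia Trim A replicate 1). In normoxia 4 calls became 2 at a fold of 2 and 3 to 4 without 1 library. Between hypoxia and normoxia 13 calls became 6 at a fold of 2 and 10 to 16 without 1 library. The 4 interaction calls became 2 without the filter, 1 with all 33 libraries in 1 fit, 1 with the replicate block, 2 with length offsets and 2 without the doubtful pair. Without 1 library they became 1 to 7: 7 without Hypoxia Trim A replicate 1, 1 without any Hypoxia miR-125b library or replicate 2 of Normoxia miR-125b or Normoxia Trim AG, and 2 without replicate 1 of Normoxia miR-125b, replicate 1 or 3 of Normoxia Trim AG, or replicate 2 or 3 of Hypoxia Trim AG. The cause was not tested. In 0 of 55 pairs of groups did every pair of libraries with the same replicate number correlate over 0.1 (range -0.247 to 0.462), so the numbers were not taken as pairs. Among Hypoxia Trim A, Trim AG and Trim AGU the correlations were 0.337 to 0.462 for number 1, 0.205 to 0.304 for number 2 and -0.0332 to 0.0663 for number 3. With Spearman's rho the likeness values were 0.836 to 0.973. Jag2 and Hey1, with medians of 10 and 18 counts, are limited by depth.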
